A study of Saccharomyces cerevisiae with 21 samples.

Results

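Yeast cells harvested 12 h into a wine fermentation were compared with cells harvested at 1 h, across every probe set of the array that is not a control. Each time had 3 arrays, described by the submitters as biological replicates, out of 21 arrays at 7 times that run to 340 h. The organism was Saccharomyces cerevisiae, and total RNA was hybridised to 1-colour Affymetrix GeneChips. No genotype, allele or added agent sets the groups apart in the labels, so time in the fermentation was the only named difference. The strain, the must or medium, the inoculum and the temperature were not given in the sources used here. The ethanol level was stated as 0.5% at about 24 h and was not stated for 1 h or 12 h. The members numbered 9275 of the 9335 probe sets, after 60 controls were set aside. Of these, 6504 matched 1 named gene and gave 5656 genes, each read from its probe set with the highest mean signal. Another 328 matched several genes, and 2443 matched none.

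When yeast cells enter fresh sugar they restart growth, and growth begins with the making of ribosomes and the uptake of phosphate, iron and amino acids. As the oxygen in the liquid is used up, the enzymes that need it to make sterols, haem and unsaturated fatty acids run short of it, and a set of hypoxic genes is switched on. That set holds spare isoforms of respiratory and translation proteins, sterol importers, and the DAN, TIR and PAU mannoproteins that replace the wall proteins of aerated cells. Once nutrients in the must are drawn down, pathways that make amino acids, purines and vitamins are used in place of uptake.

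Replicate arrays were close to each other and the times were far apart. Pearson's r over all genes ran from 0.972 to 0.990 among the 1 h arrays and from 0.976 to 0.994 among the 12 h arrays, against 0.814 to 0.857 between the times. A pair of arrays stood somewhat apart from their own group, 1 h replicate 3 and 12 h replicate 1, and results that rest on them are given without them as well. The control probe sets for 18S ribosomal RNA read 9.29 to 9.65 (log2 signal) at 1 h and 8.69 to 9.69 at 12 h. The signal of the 3' end over the 5' end, a sign of RNA integrity, was lower at 12 h for ACT1 (0.71 to 0.90 against 1.11 to 1.25, log2) and for SRB4 (1.18 to 1.36 against 1.55 to 1.61). For SPT15 it overlapped, at 1.84 to 2.12 against 1.29 to 1.90. The part of these differences in the results below was not tested.

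Most genes differed between the times. In limma, with the 7 times fitted together and Benjamini-Hochberg adjustment over all 5656 genes, 3393 genes passed at an adjusted p under 0.05, which is 60.0% of those tested. Of these, 1473 were higher at 12 h (26.0%) and 1920 were lower (33.9%). At least 2-fold changes numbered 812 higher (14.4%) and 913 lower (16.1%). All 3 arrays of 12 h lay above all 3 of 1 h for 1632 genes (28.9%) and below them for 2129 (37.6%). Over all probe sets rather than genes, 4266 of 9275 passed (46.0%), 1956 higher (21.1%) and 2310 lower (24.9%). The median change of all genes was -0.11 (log2), and the median SE of a gene's change was 0.20. Changes are on the log2 scale of the robust multi-array average (RMA), where 1 unit is a doubling of signal, and they are relative to the other genes on the array. A change in total messenger RNA cannot be seen on this scale, and fewer cells in a given state cannot be told apart from less RNA per cell.

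The direction of small changes depended on how the arrays were set level. With each array centred on 5 reference genes, all changes moved up by 0.24, and the passing genes numbered 1792 higher and 1271 lower, so the higher share went from 43.4% to 58.5%. Centred on the array medians, the shift was 0.10 and the split was 1674 higher and 1699 lower. No gene passed with opposite signs under these scalings. Where a count given for a gene group moved by over 1.5 times under the reference-gene scaling, the count under that scaling stands beside it.

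For part of the genes the 1 h arrays lay outside the range of all later arrays. All 3 arrays of 1 h lay above all 18 other arrays of the series for 1010 of the 5656 genes, and below them all for 790. The same count was not made for any other time. The 18 include the arrays of 12 h, so the direction at 12 h was fixed by this choice of genes. Of the 1010 genes 965 passed as lower at 12 h, and of the 790 genes 759 passed as higher.

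**Figure D1:**
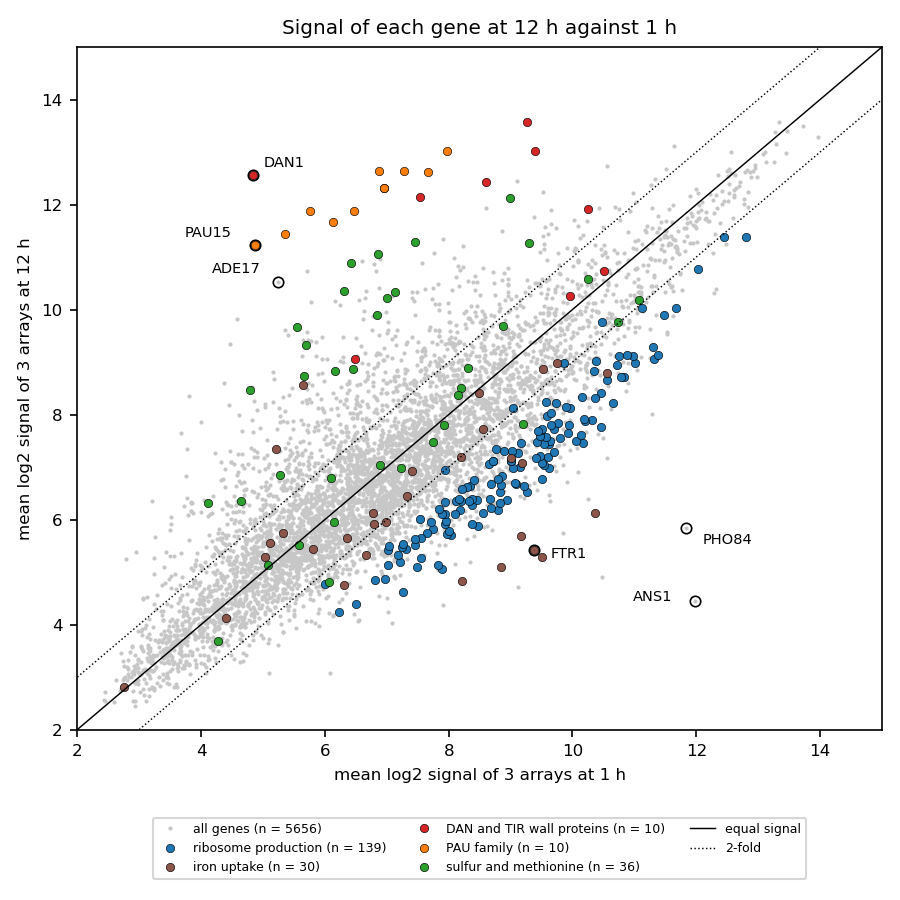
Mean log2 signal of each of the 5656 genes at 12 h (vertical axis) against 1 h (horizontal axis), 3 arrays each. Coloured points are 5 gene groups and ringed points are 6 named genes. The PAU, DAN and TIR genes lie above the upper dotted line of a 2-fold rise, and CWP1 and CWP2 of the wall group lie below it, and the 139 ribosome production genes lie below the line of equal signal.

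The largest rises belonged to cell wall mannoproteins. DAN1, the delayed anaerobic gene whose product is a wall mannoprotein, read 4.87, 4.55 and 5.11 at 1 h and 12.53, 12.63 and 12.52 at 12 h. It was well below the median gene on every 1 h array (6.81 to 6.90) and near the top of the signal range on every 12 h array. The rise was 7.72 ± 0.16 (log2, SE), which is 211-fold (adjusted p = 2.36e-20). Its mean stayed between 11.44 and 12.48 at the 5 later times. All 10 of the 10 PAU genes that had a probe set of their own name rose, by 4.96 to 6.35. PAU15 read 4.80, 4.84 and 5.0 at 1 h and 10.95, 11.35 and 11.39 at 12 h. PAU19 rose by 6.12, PAU3 by 6.08, PAU17 by 5.76, PAU16 by 5.52, PAU7 by 5.41, PAU10 by 5.36, PAU23 by 5.35, PAU13 by 5.05 and PAU4 by 4.96. The PAU genes encode a large family of near-identical seripauperin mannoproteins, and each of these 10 probe sets is of a type that can share signal with relatives. The members are therefore not independent readings. A further 12 probe sets matched several PAU genes at once, and all 12 rose, by 1.40 to 5.95.

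The TIR genes, which encode serine- and alanine-rich wall mannoproteins of cold and anaerobic cells, moved with DAN1. In the list of DAN, TIR and related wall proteins, 8 of 10 measured genes rose and none fell, with a median change of 3.73 beside -0.11 for all genes. TIR1 read 9.0, 9.32 and 9.47 at 1 h and 13.51, 13.61 and 13.63 at 12 h, a rise of 4.32 ± 0.19. TIR4 read 7.13, 7.13 and 8.33 at 1 h and 12.15, 12.15 and 12.16 at 12 h, with 1 h replicate 3 above its partners and all 12 h arrays within 0.01 of each other. TIR3 rose by 3.84, TIR2 by 3.62 and DAN4 by 2.56. TIP1, a related wall protein, rose by 1.67, or by 2.27 without 1 h replicate 3, which was high. The mannoproteins CWP1 and CWP2, which are wall proteins of aerated cells, changed by 0.30 and 0.22 and did not pass. HPF1, a mannoprotein known for reducing protein haze in wine, read 5.62, 5.66 and 5.83 at 1 h and 9.63, 11.24 and 11.32 at 12 h. The 12 h replicate 1 was lower than the other 12 h arrays, yet far above all 1 h arrays. FHN1, a plasma membrane protein related to the eisosome protein Nce102, read 4.56, 4.32 and 4.51 at 1 h and 9.02, 9.43 and 9.56 at 12 h.

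Hypoxic isoforms rose while their aerobic partners were lower or did not pass. In the list of hypoxic genes, which counts DAN1 again, 12 of 14 rose and none fell, with a median of 2.96. AAC3, the ADP/ATP carrier of anaerobic mitochondria, read 5.97, 5.26 and 6.09 at 1 h and 9.97, 10.23 and 10.22 at 12 h. It was higher on all 12 h arrays, by 4.37 ± 0.21, and its mean was back to 6.56 at 60 h. COX5B, the hypoxic form of cytochrome c oxidase subunit Va, rose by 3.74 ± 0.25, whereas its aerobic partner COX5A fell by 1.26 ± 0.22. ANB1, the anaerobic form of translation factor eIF5A, rose by 3.34 ± 0.21. HYP2, the aerobic form of eIF5A, passed as lower at -0.44 ± 0.18 with overlapping arrays, 12.25, 12.38 and 12.21 at 1 h and 12.35, 11.59 and 11.56 at 12 h, and lost its pass under 9 of 14 alternatives. CYC7, the minor isoform of cytochrome c, rose by 1.99 ± 0.28, and its partner CYC1 changed by -0.79 ± 0.47 and did not pass, with arrays from 5.95 to 8.22 within the 12 h group. Without 12 h replicate 1, the highest of these, CYC1 was at -1.53 and passed, as it did under 2 of 14 alternatives in all. OLE1, the fatty acid desaturase, changed by -0.02 ± 0.15, and the gene of the repressor of hypoxic genes, ROX1, by -0.54 ± 0.31, and neither passed. ROX1 passed at -0.82 without 12 h replicate 1.

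Sterol uptake and the early steps of sterol synthesis rose. Of the 10 mevalonate pathway genes, 9 rose, by 0.90 for MVD1 up to 2.15 for ERG9, squalene synthase, which read 7.92, 8.11 and 7.49 at 1 h and 10.10, 9.87 and 10.02 at 12 h. HMG1 and HMG2, the isozymes of the rate-limiting reductase, rose by 1.59 and 1.78. IDI1, the isopentenyl diphosphate isomerase, changed by -0.31 and did not pass. In the steps after squalene, 11 of 16 genes rose and none fell, with a median of 0.91. ERG28, a scaffold of the demethylation enzymes, rose by 2.22, CYB5 (cytochrome b5) by 2.13 and ERG24 by 1.99. ERG3, ERG25, ERG7 and ERG4 changed by 0.07, -0.12, 0.03 and -0.25 and did not pass.

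Most genes for taking up and storing sterol that are named here rose as well. AUS1, a sterol importer of anaerobic cells, read 6.06, 5.90 and 6.16 at 1 h and 8.80, 9.01 and 9.36 at 12 h, and its partner PDR11 rose by 2.58 ± 0.26. HES1, an oxysterol-binding protein homologue, read 4.02, 3.62 and 3.78 at 1 h and 8.23, 8.45 and 8.38 at 12 h, so the groups were far apart. ARE1, which esterifies sterols for storage, rose by 3.54, against 0.97 for its isozyme ARE2. UPC2, the transcription factor that activates sterol uptake genes when sterol is low, rose by 1.58 ± 0.24, while its paralogue ECM22 changed by 0.07 ± 0.17 and did not pass. HAP1, the haem-responsive activator, rose by 1.53. SUT2 was the list member that fell, by 1.66. Among fatty acid genes, 8 of 17 rose and 4 fell. ELO1, which elongates medium-chain fatty acids, rose by 3.91 ± 0.22, ACS2, the nuclear and cytosolic acetyl-CoA synthetase, by 2.44 and FAS2, a fatty acid synthase subunit, by 2.07. ELO2, the elongase for longer chains, fell by 0.55, a call lost under 4 of 14 alternatives. With arrays centred on the reference genes, 10 fatty acid genes rose and none fell. Of 14 genes of haem metabolism and haem-responsive regulators 6 rose and 2 fell, or 8 and 1 under the reference-gene scaling. HEM13, coproporphyrinogen oxidase, read 6.38, 6.44 and 6.98 at 1 h and 10.70, 11.08 and 10.98 at 12 h, and HEM15, ferrochelatase, and HEM14, the oxidase between them, rose by 3.53 and 2.83. HEM1, the first step, changed by -0.29 ± 0.24 and did not pass.

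**Figure D2:**
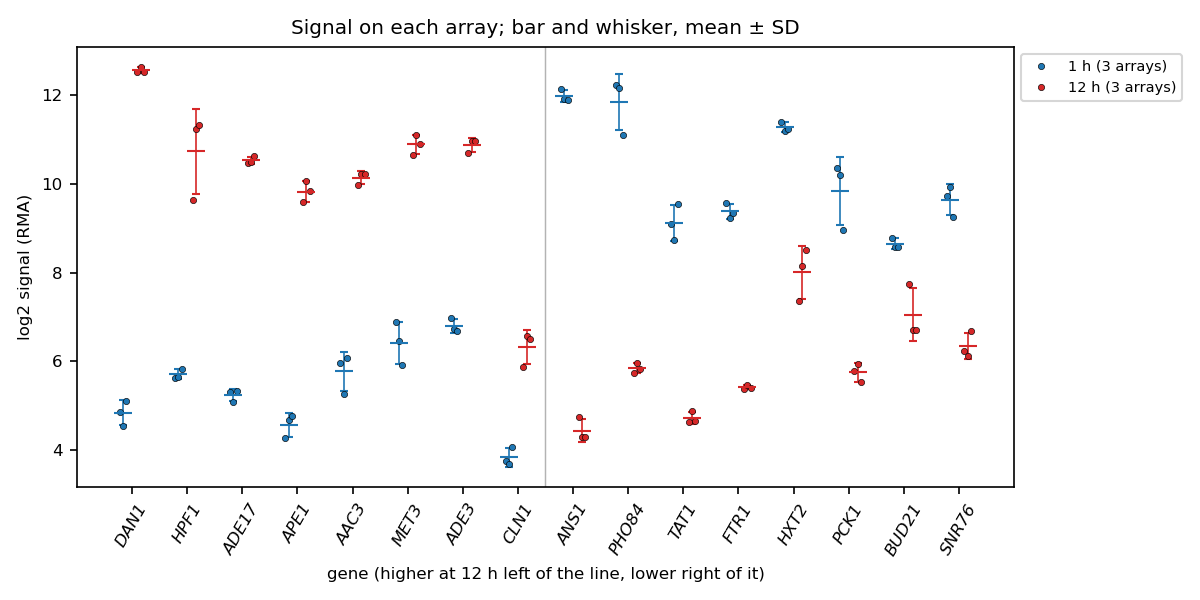
Log2 signal of 16 named genes on each of the 3 arrays at 1 h (blue) and 12 h (red), with the group mean and SD as bar and whisker. The groups do not overlap for any of the 16 genes, and the widest spread within a group is that of HPF1 at 12 h.

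Genes for making ribosomes were lower at 12 h without exception in the list. All 139 of 139 measured ribosome biogenesis genes fell, 135 of them at least 2-fold, with a median of -1.97, where 33.9% of all genes fell. MAK5, a helicase of the large subunit precursor, read 8.02, 7.63 and 8.04 at 1 h and 5.57, 4.60 and 5.0 at 12 h and fell by 2.84 ± 0.30. ENP2 fell by 2.75, ARX1, an export factor of the large subunit, by 2.72, RRP12 by 2.71 and NOP16 by 2.70. BUD21, a component of the small subunit processome, read 8.79, 8.57 and 8.58 at 1 h and 7.75, 6.70 and 6.71 at 12 h, with 12 h replicate 1 above its partners. NOP1, the nucleolar methyltransferase, had the smallest change of the list, -0.72 ± 0.21. The summed picture by array was the same: the median signal of the list was 8.95 to 9.10 on the 1 h arrays and 6.74 to 7.46 on the 12 h arrays, the highest of the latter being replicate 1.

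RNA polymerases, small RNAs and translation factors fell with them. In the list for RNA polymerases I and III, 33 of 41 genes fell and 5 rose. RPA43 and RPA12, subunits of polymerase I, fell by 2.26 and 2.07, and TFC4, a subunit of the polymerase III factor TFIIIC, rose by 1.02. Of 61 small nucleolar and spliceosomal RNAs, 55 fell and none rose, with a median of -1.48. SNR76, a guide RNA for methylation of ribosomal RNA, read 9.73, 9.94 and 9.25 at 1 h and 6.23, 6.12 and 6.69 at 12 h, and its mean at 340 h was back at 9.55. These RNAs have no poly(A) tail in their mature form, and how the cDNA was primed was not given in the sources used here. Of 91 transfer RNA genes, 88 of them on probe sets shared with relatives, 79 fell and none rose, and 36 fell with arrays centred on the reference genes. The list of translation factors had 33 of 40 genes lower and 2 higher. GCD10, counted in this list though its product is a subunit of a transfer RNA methyltransferase, fell by 1.99. CAM1, a form of elongation factor 1B gamma, rose by 1.61. Transfer RNA synthetases fell in 14 of 20 cases, led by ALA1 at -1.27, and in 5 cases under the reference-gene scaling. In the splicing list, 31 of 42 genes fell and none rose, led by PRP43, a helicase that also acts on ribosome precursors, at -2.11. RNA polymerase II and its general factors had 17 of 27 genes lower and none higher, and 10 lower under the reference-gene scaling.

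The ribosomal proteins themselves moved little. Of 80 measured cytoplasmic ribosomal protein genes, 21 fell, none rose, and 59 did not pass, which is a smaller share lower than the 33.9% of all genes. The median change was -0.31. RPL7B, which fell by 1.03 on a shared probe set, had the largest change. RPL3 read 11.36, 11.60 and 11.59 at 1 h and 11.57, 11.52 and 11.39 at 12 h, with the groups overlapping. Only 11 fell with arrays centred on medians and 4 with arrays centred on the reference genes. Many ribosomal protein genes come in near-identical pairs: 30 of the 80 were on shared probe sets, and of 59 probe sets that matched several of them 9 fell. The median of this list fell away only later in the fermentation, to -2.39 below 1 h at 340 h, whereas that of the ribosome production list was already -1.97 at 12 h.

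**Figure D3:**
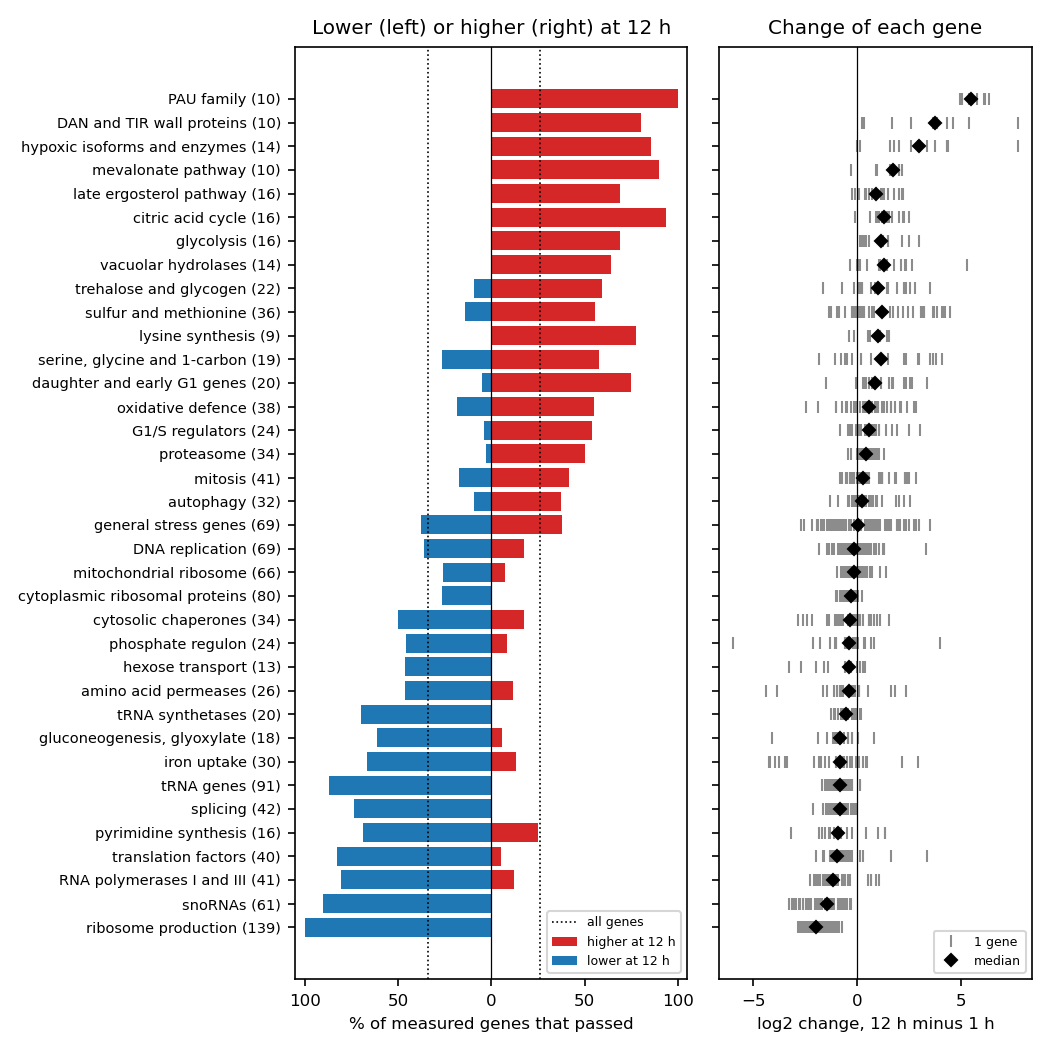
For 36 gene groups, with the number of measured genes in brackets, the left panel gives the percentage of genes that passed as higher (red) or lower (blue) at 12 h, and dotted lines mark the percentages over all genes (26.0% and 33.9%). The right panel gives the log2 change of each gene and the median of the group. The PAU family is at the top with all 10 genes higher and ribosome production at the bottom with all 139 lower.

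The largest fall was that of ANS1, a gene for a predicted cell surface protein, which read 12.13, 11.92 and 11.88 at 1 h and 4.74, 4.29 and 4.30 at 12 h. It fell by 7.54 ± 0.27, a 186-fold difference (adjusted p = 6.71e-16). The signal went from among the strongest to well below the median gene of the 12 h arrays, at 6.73 to 6.78. YMR244W, a gene with no assigned function, read 10.48, 10.14 and 10.83 at 1 h and 5.07, 4.78 and 4.87 at 12 h. Its mean stayed at or under 6.85 up to 120 h and was 10.03 at 340 h. YPR078C, which also has no assigned function and lies on a shared probe set, fell by 3.54 ± 0.35.

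The phosphate permease gene fell and the phosphatase gene rose. PHO84, the high-affinity phosphate transporter, read 12.23, 12.17 and 11.11 at 1 h and 5.74, 5.97 and 5.84 at 12 h. The 1 h replicate 3 was lower than its partners and still far above every 12 h array, and the change was -5.99 ± 0.24. PHO5, the secreted acid phosphatase that is controlled by the same activator, read 6.25, 6.26 and 5.98 at 1 h and 9.50, 10.49 and 10.47 at 12 h, a rise of 3.99 ± 0.24. Of 24 genes of phosphate control, transport and polyphosphate, 2 rose and 11 fell, and 4 rose and 6 fell with arrays centred on the reference genes. The polyphosphate synthase subunits VTC3 and VTC1 fell by 2.11 and 1.82. PHO4, the activator of the pathway, changed by 0.65 ± 0.36 and PHO89, a sodium-coupled phosphate transporter, by -0.37 ± 0.16, and neither passed, though PHO4 passed as higher and PHO89 as lower under 3 alternatives each. PHM8 passed as lower at -1.02, a call lost under 7 of 14 alternatives, among them the fit of only the 6 arrays and both scalings, and it was at -0.39 without 12 h replicate 1.

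Most iron uptake genes fell. Of 30 measured genes, 20 fell and 4 rose, with a median of -0.85. FTR1 and FET3 encode the permease and the multicopper oxidase of the high-affinity iron transporter. FTR1 read 9.57, 9.24 and 9.34 at 1 h and 5.39, 5.47 and 5.40 at 12 h. FET3 read 9.20, 9.04 and 9.28 at 1 h and 5.61, 5.80 and 5.64 at 12 h, so both were at least 3 log2 units lower on every 12 h array. ARN1 and SIT1, transporters of iron bound to siderophores, fell by 4.24 ± 0.21 and by 4.21, and FIT2, a wall mannoprotein that holds siderophores, fell by 3.75 ± 0.26. TIS11 (also called CTH2), which directs the decay of messenger RNAs of iron-using proteins, fell by 3.38 ± 0.24. The iron-sensing activators themselves were lower by less: AFT2 fell by 0.87 and AFT1 changed by -0.37 and did not pass. The low-affinity transporter of iron and other metals, FET4, went the other way. It read 5.75, 5.45 and 5.74 at 1 h and 8.85, 8.44 and 8.38 at 12 h, a rise of 2.91 ± 0.18. SMF1, a manganese transporter, rose by 2.15. In the zinc list 6 of 13 genes rose and 4 fell, with the high-affinity transporter ZRT1 at -1.15 and the membrane protein IZH4 at 2.16. In the copper list 3 of 10 rose and 3 fell (30% each), near the shares of all genes. Of these, CTR1, the high-affinity copper transporter, changed by -0.64 ± 0.26 and lost its pass under 8 of 14 alternatives.

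Some sugar transporter genes and most genes of growth without sugar were lower at 12 h. Of 13 hexose transporter and sensor genes with a probe set of their own name 6 fell, none rose and 7 did not pass. Under the reference-gene scaling 1 rose and 5 fell. A further 3 probe sets matched several genes of this list, of which 1 rose, none fell and 2 did not pass. HXT2, a high-affinity hexose transporter, read 11.40, 11.20 and 11.24 at 1 h and 7.35, 8.15 and 8.52 at 12 h. Its 12 h arrays were more spread than its 1 h arrays and lay below them all. HXT5, the transporter of non-growing cells, fell by 2.69 ± 0.20. HXT6 and HXT7, near-identical high-affinity transporters on shared probe sets, fell by 2.01 and 1.42. HXT4 fell by 1.60, or by 0.94 without 12 h replicate 1. The low-affinity transporters HXT1 and HXT3 changed by 0.29 ± 0.23 and -0.29 ± 0.18, and neither passed. A wider list held gluconeogenesis, the glyoxylate cycle, acetate and lactate use and their activators. In it 11 of 18 genes were lower, 1 was higher and 6 did not pass. PCK1, which makes phosphoenolpyruvate for new glucose, read 10.36, 10.20 and 8.97 at 1 h and 5.78, 5.94 and 5.53 at 12 h, and 1 h replicate 3 was the lowest of the 1 h arrays. FBP1, the phosphatase of the same pathway, read 5.79, 5.53 and 5.57 at 1 h and 5.51, 5.78 and 5.67 at 12 h, with the groups overlapping at low signal. FDH1, formate dehydrogenase, fell by 1.88 on a shared probe set, and SIP4, an activator of gluconeogenic genes, rose by 0.81.

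Glycolysis rose and the path to ethanol changed in its minor isozymes. Of 16 glycolytic genes, 11 rose and none fell. Among the kinases that start the pathway, HXK1 read 7.12, 6.86 and 6.96 at 1 h and 9.27, 10.27 and 10.32 at 12 h and GLK1 rose by 2.49 ± 0.22, whereas HXK2, the main hexokinase of cells growing on glucose, changed by 0.20 ± 0.19 and did not pass. PGK1 rose by 2.17, PGI1 by 1.50 and ENO1, on a shared probe set, by 1.48. TDH3, FBA1 and CDC19, whose signals were already near the top of the range at 1 h, changed by 0.23, 0.14 and 0.21 and did not pass. Of these, TDH3 was on a shared probe set, and it passed as higher, at 0.44, after renewed quantile normalization. ADH1 and PDC1, the main alcohol dehydrogenase and pyruvate decarboxylase, changed by 0.03 ± 0.13 and 0.30 ± 0.16, and neither passed, though PDC1 did under the reference-gene scaling. ADH5, a minor alcohol dehydrogenase, read 6.28, 6.76 and 5.86 at 1 h and 8.97, 9.79 and 9.70 at 12 h, and ADH4 rose by 1.30. ADH2, the isozyme that consumes ethanol, fell by 1.33. PDC5 passed at 1.23 ± 0.46 with overlapping arrays, 7.90, 7.45 and 6.95 at 1 h and 7.10, 9.42 and 9.47 at 12 h. The call was lost under 6 of 14 alternatives, among them the fit of only the 6 arrays and those in which any single array other than 1 h replicate 1 or 12 h replicate 1 was left out. It was at 2.01 without the latter.

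The citric acid cycle rose at nearly every step. Of 16 genes, 15 rose, with a median of 1.26, and CIT3 alone did not pass. ACO1, aconitase, read 7.77, 7.94 and 7.48 at 1 h and 9.88, 10.38 and 10.34 at 12 h. LSC2, a subunit of succinyl-CoA ligase, rose by 2.24, IDH1, a subunit of the NAD-linked isocitrate dehydrogenase, by 2.20 and CIT1, citrate synthase, by 1.43. The succinate dehydrogenase genes SDH1 to SDH4 rose by 0.63 to 1.02, the call of SDH3, the lowest, being lost under 4 of 14 alternatives. Respiratory chain and ATP synthase genes were divided, with 8 of 36 higher and 8 lower (22.2% each), both under the shares of all genes (26.0% and 33.9%). Under the reference-gene scaling 10 were higher and 5 lower. NDE1, which passes electrons from cytosolic NADH to the chain, read 10.55, 10.79 and 10.31 at 1 h and 7.18, 7.19 and 7.13 at 12 h, and fell by 3.38 ± 0.21. The other external dehydrogenase, NDE2, fell by 1.06, while the internal one, NDI1, changed by 0.21 and did not pass. ATP2 and ATP16 of the ATP synthase rose by 1.27 and 1.31. Of 66 mitochondrial ribosomal protein genes 44 did not pass. In glycerol metabolism, DAK1, dihydroxyacetone kinase, rose by 2.75 ± 0.17 and GPD1, which makes glycerol 3-phosphate, by 1.09 ± 0.18, and the glycerol importer STL1 fell by 1.64 ± 0.20. In the pentose phosphate pathway SOL3, GND1 and TAL1 rose, by 2.67, 1.83 and 2.14, and RKI1, the ribose isomerase, fell by 1.90.

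Sulfate assimilation rose at each enzyme step from sulfate to sulfide. Of 36 genes of sulfur and methionine metabolism, 20 rose and 5 fell. Of the sulfate permeases, SUL2 read 5.65, 5.84 and 5.51 at 1 h and 8.20, 9.04 and 8.95 at 12 h, and SUL1 fell by 0.58 ± 0.17, which did not pass with arrays centred on the reference genes. MET3, which activates sulfate, read 6.88, 6.45 and 5.92 at 1 h and 10.66, 11.10 and 10.90 at 12 h. The following steps rose by 3.82 for MET14, 4.12 for MET16, 4.05 for MET5 and 2.66 for MET10, the last pair being the subunits of sulfite reductase. MET17, which joins sulfide to a carbon chain, rose by 3.13. MET6, methionine synthase, read 7.11, 6.96 and 6.51 at 1 h and 10.98, 11.13 and 11.08 at 12 h. Of the S-adenosylmethionine synthetases, SAM2 rose by 3.22 ± 0.27 and its near relative SAM1 by 0.58 ± 0.19, which without 12 h replicate 1 was 0.45 and did not pass. MET28 and MET32, partners of the activator Met4, rose by 3.67 and 1.71, while MET31 fell by 1.25 and MET4 itself changed by -0.20 and did not pass. CYS4 and SAH1, which act on homocysteine and its precursor, fell by 0.90 and 0.98.

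Cytosolic and mitochondrial isozymes of 1-carbon metabolism moved in opposite directions. In the list for serine, glycine, threonine and folate, 11 of 19 genes rose and 5 fell, or 11 and 3 under the reference-gene scaling. ADE3, the cytosolic folate enzyme with several activities, read 6.97, 6.74 and 6.68 at 1 h and 10.70, 10.97 and 10.96 at 12 h, while MIS1, its mitochondrial counterpart, fell by 1.85 ± 0.19. SHM2, the cytosolic serine hydroxymethyltransferase, rose by 2.32 ± 0.17, and SHM1, the mitochondrial one, fell by 0.81 ± 0.16. The glycine decarboxylase subunits, which are mitochondrial, rose, GCV1 by 3.49, GCV2 by 2.94 and GCV3 by 2.98. SER33, the first enzyme of serine synthesis, read 5.67, 5.92 and 5.37 at 1 h and 9.29, 9.39 and 9.59 at 12 h, and SER1 rose by 3.64 ± 0.16. MTD1, a cytosolic folate dehydrogenase, rose by 2.27, and GLY1, threonine aldolase, fell by 1.09.

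Several genes of purine synthesis to AMP rose, while genes of salvage and of the branch to GMP fell. In the purine list 8 of 24 genes rose and 12 fell. ADE17, which carries out the last steps to IMP, read 5.31, 5.08 and 5.34 at 1 h and 10.47, 10.50 and 10.62 at 12 h, a rise of 5.29 ± 0.18, against 0.66 ± 0.14 for its isozyme ADE16. ADE2 rose by 3.58, ADE13 by 3.17, ADE1 by 2.96, ADE6 by 1.05, ADE8 by 0.98 and ADE12 by 0.67. The call of ADE12 was lost under 3 of 14 alternatives, and without 1 h replicate 3 it was at 0.34. ADE4, the first committed step, read 5.77, 5.85 and 6.38 at 1 h and 6.62, 6.39 and 6.35 at 12 h and did not pass (adjusted p = 0.0517), though it did under 5 of 14 alternatives. GUA1 and IMD3 of the GMP branch fell by 1.62 ± 0.18 and by 0.72 ± 0.14, IMD3 being on a probe set shared with relatives. The salvage enzyme AAH1, adenine deaminase, read 10.49, 10.54 and 10.44 at 1 h and 7.23, 7.49 and 7.95 at 12 h. The phosphoribosyl pyrophosphate synthetase gene PRS4 fell by 2.0 and BAS1, an activator of the ADE genes, by 1.60. Pyrimidine genes were mostly lower, 11 of 16, with 4 higher. FUI1, the uridine permease, read 9.89, 9.57 and 10.26 at 1 h and 6.62, 6.86 and 6.66 at 12 h, URK1 and URA7 fell by 1.86 and 1.68, and YNK1, nucleoside diphosphate kinase, rose by 1.35. URA10 rose by 1.32, or by 2.0 without 12 h replicate 1.

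**Figure D4:**
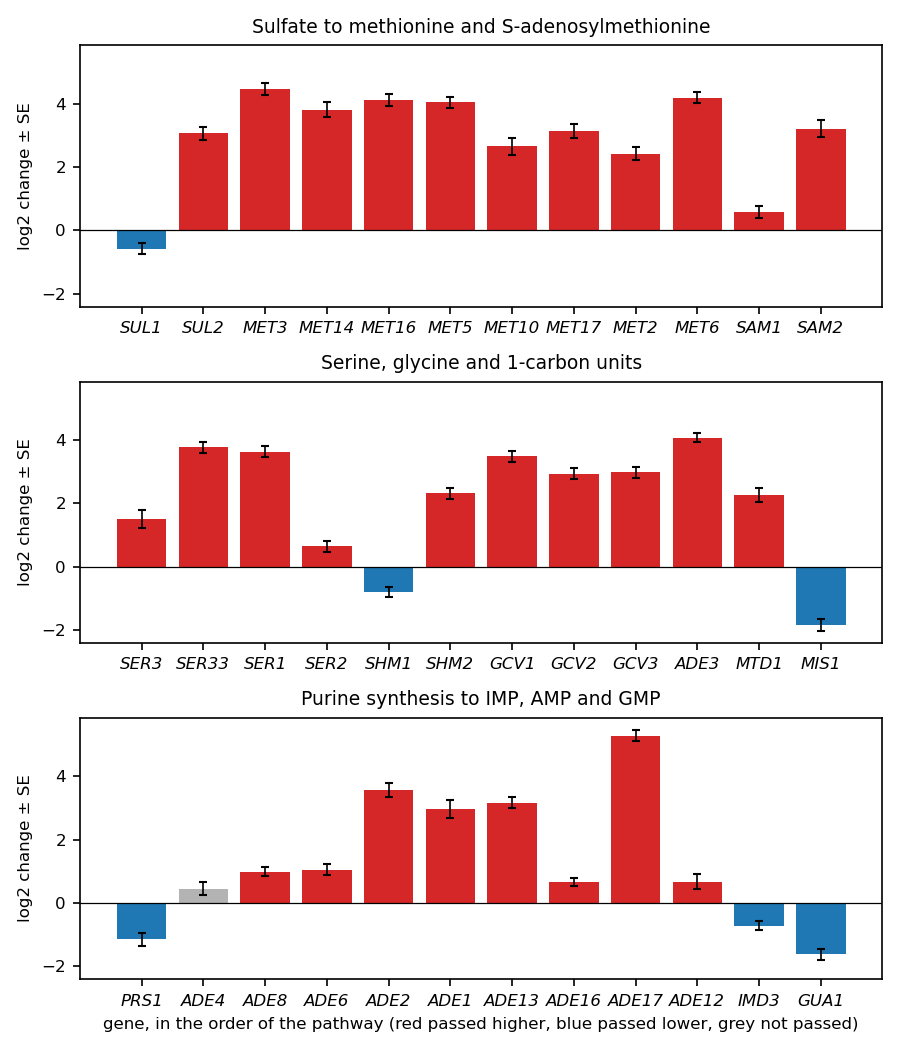
Log2 change from 1 h to 12 h, with its SE, for 12 genes each of sulfate assimilation, of serine and 1-carbon metabolism, and of purine synthesis, in pathway order. Red bars passed as higher, blue as lower and the grey bar, ADE4, did not pass. The tallest bar is ADE17 and the lowest MIS1.

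Other amino acid pathways rose in part. HIS4, which catalyses several steps of histidine synthesis, read 7.20, 6.61 and 6.87 at 1 h and 10.38, 11.29 and 11.23 at 12 h, and HIS5 rose by 3.52 ± 0.23. Of 21 histidine and aromatic pathway genes 11 rose and 4 fell, or 14 and 2 under the reference-gene scaling. ARO7, chorismate mutase, fell by 1.38. ARG1 rose by 3.68 ± 0.31, ARG4 by 2.85 and ARG3 by 1.67, while CPA1, which makes carbamoyl phosphate for arginine, fell by 1.01. In the arginine and proline list 8 of 14 rose and 5 fell, or 8 and 2 under the reference-gene scaling. Lysine genes rose in 7 of 9 cases, from 0.50 for LYS12 to 1.53 for LYS5. Branched-chain genes rose in 6 and fell in 4 of 13 cases, or in 6 and 2 under the reference-gene scaling. GCN4, the activator of amino acid synthesis, which is mainly controlled by translation, fell by 0.62 ± 0.19 in message, which did not pass with arrays centred on the reference genes.

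Amino acid permeases fell more often than they rose, and the largest falls of their list were those of permeases for branched-chain and aromatic amino acids. TAT1, a permease for valine, leucine, isoleucine and tyrosine, read 9.10, 8.73 and 9.54 at 1 h and 4.63, 4.88 and 4.66 at 12 h. BAP2, a branched-chain permease, read 10.27, 10.13 and 10.35 at 1 h and 6.85, 6.18 and 6.12 at 12 h. Their relative BAP3 rose, by 2.33 ± 0.24, and so did the oligopeptide transporter OPT1, by 1.83. In all 12 of 26 permease and sensor genes fell and 3 rose, while GAP1, the general permease, read 7.98, 7.93 and 6.39 at 1 h and 6.61, 7.40 and 7.41 at 12 h and did not pass. Its 1 h replicate 3 was low, as was that of DIP5, the acidic amino acid permease, which read 7.87, 8.06 and 5.81 at 1 h and 6.90, 7.12 and 7.02 at 12 h and did not pass. Without that array GAP1 was at -0.82 and DIP5 at -0.95, and both passed as lower. In the list of genes under nitrogen catabolite repression 16 of 38 rose and 6 fell. UGA2 and UGA1, which degrade 4-aminobutyrate, rose by 1.71 and 1.67, and CAR2, of arginine breakdown, by 1.53. PUT4 and PUT1, proline permease and oxidase, fell by 1.66 and 1.33.

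General stress genes changed in both directions. Of 69 targets of the stress activators Msn2 and Msn4, 26 rose (37.7%), 26 fell (37.7%) and 17 did not pass. The shares of all genes were 26.0% higher and 33.9% lower, and the median of the list was 0.03. HSP12, a membrane-stabilising stress protein, read 10.28, 10.22 and 10.19 at 1 h and 8.96, 8.77 and 8.71 at 12 h and fell by 1.42 ± 0.18. CTT1, cytosolic catalase, fell by 1.91 ± 0.23, and DDR2 and SPI1, a heat-inducible gene and a wall protein gene, by 1.96 and 1.94. RGI2, a gene of respiratory growth, fell by 2.56. The largest rises among the 69 were 3.49 for GPH1, 2.97 for HXK1, 2.81 for STF2 and 2.72 for DCS1. Of 24 genes of stationary phase and desiccation, 14 fell and 4 rose, one of the risers being PIR3, a wall protein gene described with the cell cycle genes. SPG4, a gene needed for survival in stationary phase, read 10.92, 10.99 and 10.69 at 1 h and 9.07, 8.36 and 7.94 at 12 h, and SPS100, a spore wall gene, fell by 2.52.

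Trehalose and glycogen genes rose in 13 of 22 cases and fell in 2, or in 14 and 1 under the reference-gene scaling. TPS1, trehalose-6-phosphate synthase, read 6.25, 6.05 and 6.50 at 1 h and 8.06, 8.74 and 8.77 at 12 h, and UGP1, which makes UDP-glucose, rose by 2.77 ± 0.20 and TPS3 by 2.55 ± 0.24. GPH1, glycogen phosphorylase, read 4.96, 5.50 and 5.08 at 1 h and 6.88, 9.48 and 9.65 at 12 h, so that 12 h replicate 1 stood well below the other 12 h arrays. Its rise was 3.49 ± 0.46, or 4.39 without that array. PGM2 and GSY2, phosphoglucomutase and glycogen synthase, behaved likewise, at 2.35 and 1.88, or 3.08 and 2.61 without it. The median signal of the list was 5.72 to 5.99 on the 1 h arrays, 6.25 on 12 h replicate 1 and 7.78 and 7.87 on the others. GAC1, which targets a phosphatase to glycogen synthase, fell by 1.64. STF2 and DCS1, members of the general stress list outside this pathway, rose by 2.81 and 2.72.

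Chaperones and their cofactors, mainly but not only of the cytosol, fell more often than they rose, 17 against 6 of 34. HSP30, a plasma membrane stress protein, read 9.67, 9.35 and 9.25 at 1 h and 6.24, 6.96 and 6.49 at 12 h, and BTN2, a sorting factor for misfolded proteins, fell by 2.62 ± 0.22. CNS1, a co-chaperone, fell by 2.44, and SSA3 and SSA4, the inducible Hsp70 genes, by 2.17 and 1.39. The constitutive Hsp70 gene SSA2 rose by 1.50 ± 0.21, and CPR1, cyclophilin, by 1.11 on a shared probe set. HSP82 and HSC82, which encode Hsp90, changed by -0.20 and 0.15 and did not pass, HSP82 being on a shared probe set. In the folding machinery of the endoplasmic reticulum ERO1, the thiol oxidase, fell by 2.45 ± 0.19 and EUG1, a disulfide isomerase, rose by 2.29 ± 0.20, while KAR2, the Hsp70 of that compartment, fell by 0.62, a call lost under the reference-gene scaling. Defence against oxidants rose in 21 of 38 cases and fell in 7. GSH2, glutathione synthetase, read 4.69, 4.84 and 4.98 at 1 h and 7.92, 7.27 and 7.83 at 12 h, TSA2 and TRX1, a peroxiredoxin and a thioredoxin, rose by 2.72 and 2.39, and CTA1, peroxisomal catalase, fell by 2.45 ± 0.23.

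Cell cycle regulators rose more often than they fell. Of 24 regulators of the G1/S step 13 rose and 1 fell. CLN1, a G1 cyclin, read 3.76, 3.68 and 4.07 at 1 h and 5.87, 6.58 and 6.50 at 12 h. CLN2 rose by 1.91 ± 0.25, and NRM1, which turns off G1/S transcription, by 3.01 ± 0.19, while CLN3, the upstream cyclin, changed by 0.17 and did not pass. Of 41 mitotic genes 17 rose and 7 fell, or 20 and 4 with arrays centred on medians and 21 and 2 under the reference-gene scaling. CDC5, the polo kinase, read 4.32, 4.15 and 4.94 at 1 h and 7.05, 7.33 and 7.53 at 12 h, and SWI5, DBF2, CLB1 and CLB2 rose by 2.47, 2.42, 2.41 and 2.31. MAD1, of the spindle checkpoint, fell by 0.83. Genes of daughter cells and early G1 rose in 15 of 20 cases. PIR3, a wall protein, and DSE4, a glucanase that separates daughters, rose by 3.33 ± 0.37 and 2.53 ± 0.46, or by 3.92 and 3.49 without 12 h replicate 1, which was low for both. TEC1, an activator of filamentous growth genes, fell by 1.53.

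Replication genes did not move as one. Of 69 genes 12 rose (17.4%), 25 fell (36.2%) and 32 did not pass, beside 26.0% higher and 33.9% lower of all genes. RNR3, a damage-inducible large subunit of ribonucleotide reductase, read 7.32, 7.33 and 8.08 at 1 h and 11.37, 10.49 and 10.81 at 12 h on a probe set shared with relatives and was the largest rise of the list, whereas SLD5, MCM3 and ORC6, of the replication helicase and the origin complex, fell by 1.86, 1.47 and 1.37. HHO1, the linker histone, rose by 1.15 ± 0.23, and HTB2, a histone H2B gene, changed by -0.31 ± 0.24 and did not pass. Most genes of mating and of meiosis did not pass, 19 of 32 and 24 of 34. In the meiosis list SPO12, which acts at the exit from mitosis too, rose by 2.40.

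Vacuolar hydrolases rose and the proteasome rose slightly. Of 14 vacuolar hydrolases and their inhibitors 9 rose and none fell. APE1, vacuolar aminopeptidase I, read 4.27, 4.68 and 4.78 at 1 h and 9.58, 10.06 and 9.83 at 12 h, which made it one of the largest rises of any gene. ATG19, the receptor that carries this enzyme to the vacuole, rose by 2.56 ± 0.22, and AMS1, an alpha-mannosidase carried by the same receptor, by 2.35 ± 0.24. APE3 and PRC1, another aminopeptidase and carboxypeptidase Y, rose by 2.65 and 1.76. PRB1 changed by 0.47 and did not pass, and it passed under 6 of 14 alternatives. Of 32 autophagy genes 12 rose and 3 fell, among them the mitophagy receptor ATG32 at -0.94. The proteasome had 17 of 34 genes higher, 2 of them at least 2-fold, led by PRE2 at 1.27. Its activator gene RPN4 read 8.71, 8.80 and 8.70 at 1 h and 8.32, 8.25 and 8.33 at 12 h and passed as lower at -0.43 ± 0.17, a call lost under 9 of 14 alternatives.

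Vitamin, aroma and efflux genes changed in both directions. In the list of biotin and other vitamin genes 9 of 16 rose and 5 fell, or 9 and 3 under the reference-gene scaling. BIO3, of biotin synthesis, read 5.90, 5.91 and 5.32 at 1 h and 6.74, 9.30 and 9.43 at 12 h, with 12 h replicate 1 near the 1 h arrays. Its rise of 2.78 ± 0.43 became 3.66 without that array. BIO2, biotin synthase, rose by 1.96 ± 0.20 with close replicates, and VHT1, the biotin transporter, fell by 1.32 ± 0.23. THI7, the thiamine transporter, read 10.96, 10.75 and 11.43 at 1 h and 8.41, 9.19 and 8.92 at 12 h, and THI4, which makes the thiazole ring, rose by 1.34. Of 14 fusel alcohol and ester genes 8 rose and 1 fell, or 10 and none under the reference-gene scaling. ATF1, the alcohol acetyltransferase that makes isoamyl acetate and other fruity esters, read 5.01, 5.28 and 5.18 at 1 h and 7.94, 8.41 and 8.39 at 12 h. ATF2 rose by 1.31, and ARO10, the decarboxylase on the path to fusel alcohols, by 0.94. YPR1 and BDH1, reductases of aldehydes and of acetoin, rose by 2.60 and 2.04, and GRE2, a methylglyoxal reductase, fell by 2.42. Of 25 drug efflux genes 5 rose (20%) and 9 fell (36%), near the 26.0% and 33.9% of all genes. TPO2, a polyamine exporter on a shared probe set, and SNQ2, a drug exporter, fell by 1.93 and 1.58, and TPO4 rose by 1.88, with 12 h replicate 1 the lowest of its 12 h arrays.

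Wall genes beyond these mannoproteins changed in both directions, at shares not far from those of all genes (26.0% higher and 33.9% lower). Of 42 wall genes 13 were higher (31.0%) and 17 lower (40.5%), or 14 and 11 under the reference-gene scaling. WSC4 and WSC2, of the family of wall stress sensors, rose by 2.63 and 2.17, and their relative SLG1, the main sensor, fell by 1.24. GAS1, which elongates glucan chains, read 12.54, 12.38 and 12.53 at 1 h and 11.26, 11.11 and 11.34 at 12 h, and SCW10 and FKS1, a glucanase and a glucan synthase subunit, fell by 1.45 and 1.05. Of 25 phospholipid genes 9 rose (36%) and 7 fell (28%), or 9 and 4 under the reference-gene scaling. The CDP-diacylglycerol synthase CDS1 was at -1.66 and choline kinase CKI1 at 1.40. In the list of fatty acid breakdown and peroxisomes 11 of 28 rose (39.3%) and 8 fell (28.6%), or 12 and 3 under the reference-gene scaling.

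**Figure D5:**
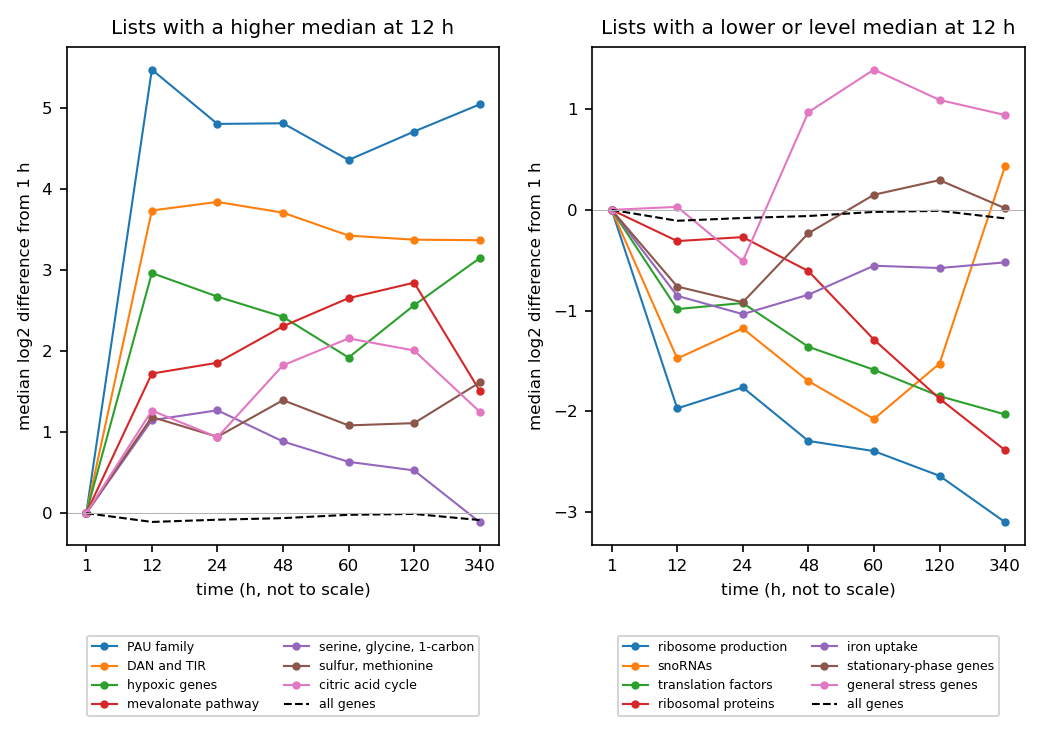
Median over each gene group of the log2 difference from the 1 h mean, at the 7 sampled times, with all genes as a dashed line; all points share the same 3 arrays of 1 h. The PAU, DAN and TIR groups stay between 3.36 and 5.47 from 12 h on, and ribosome production lies at -1.97 at 12 h and -3.10 at 340 h.

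The group medians at later times show how far the 12 h state lasted. They share the 1 h arrays with the comparison above and are given as values only. The PAU median, 5.47 at 12 h, came to 4.80 by 24 h and to 5.04 by the last sampling. The serine and 1-carbon median was 1.15 at 12 h and -0.11 at 340 h. General stress genes, level at 12 h (0.03), were at -0.51 at 24 h and at 1.39 at 60 h. Small nucleolar RNAs were at -1.48 at 12 h and at 0.43 at 340 h.

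Probe sets without a named gene passed less often than probe sets as a whole. Of the 2443, 600 passed, 296 as higher and 304 as lower, beside 4266 of all 9275 probe sets (46.0%). Of the 328 that match several genes, 165 passed, 125 higher and 40 lower, and the 12 PAU probe sets that rose are among them. By type, 4 small nuclear RNAs fell in 3 cases, and of 4 ribosomal RNA genes 2 passed as lower, RDN5-3 at -1.39 and RDN5-1 at -0.89, the latter with its call lost under 5 of 14 alternatives.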

How the data were processed

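The series table, deposited by the authors, holds log2 probe set signals of 21 arrays, made with the robust multi-array average (RMA) in the affy package, per the submitters' processing notes. Its unit was checked on the values, which run from 2.01 to 14.15. Probe sets were named from the platform annotation, with symbols updated from RefSeq, and each gene was read from its single-gene probe set of highest mean. Of the genes, 284 lie on probe set types that can share signal with relatives.

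All 21 arrays were fitted with 7 time means in limma 3.58.1 (R 4.3.3), and the contrast of 12 h minus 1 h was tested two-sided with default eBayes and Benjamini-Hochberg adjustment over 5656 genes, with a threshold of 0.05. Values per gene are log2 changes ± SE from this fit. Gene groups are described by counts and medians beside those of all genes, with no set test. Some genes belong to several groups, so the counts of different groups are not independent. The text names the 15 largest rises and falls with non-overlapping arrays, up to 6 members of each group with the largest changes, and members whose role it needs. The groups and members were chosen with earlier results of these data known. Alternatives covered the samples fitted, a replicate block, array scaling, low signals, probe set choice, the variance model and each array left out. The fit was tested on simulated data. Sequences, coordinates and the scanner files were not used here.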

Additional observations from a re-analysis of the deposited data

How the results depend on the processing

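The 3393 passing genes became 3376 with only the 6 arrays of both times fitted, 3383 with a gene's probe sets averaged, 3417 after renewed quantile normalization and 2788 of 4242 with the genes below the 0.25 quantile of mean signal left out. Leaving out 1 array at a time gave 3043 to 3276 genes, 1322 to 1441 higher and 1706 to 1835 lower. The lower genes numbered 1271, against 1920, when arrays were centred on the reference genes, which themselves moved by -0.97 for TAF10 to 0.53 for TFC1. At least 2-fold changes then numbered 1041 higher and 636 lower, against 812 and 913. The labels did not say whether equal replicate numbers mark shared fermentations. Deviations of same-numbered arrays correlated at -0.05, -0.01 and -0.08, and 3 arrays a time are too few to settle it. The replicate block gave 3247 genes, 3160 of them also in the fit without it.

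Of the 301 genes named, 265 kept their direction and their side of the threshold under every alternative, 13 lost a call and 11 gained one under at least 1, and 13 that had not passed changed sign. Centring on the reference genes put CIT3 at 0.14, DIP5 at 0.0034, ERG25 at 0.12, HSP82 at 0.040, MET4 at 0.038, OLE1 at 0.22 and RPL3 at 0.21. Centring on the medians put CIT3 at 0.0071, OLE1 at 0.085 and RPL3 at 0.079, and quantile normalization put OLE1 at 0.012. Leaving out 1 array at a time, ADH1 ran from -0.015 to 0.057, CIT3 from -0.32 to 0.26, CLN3 from -0.090 to 0.65, DIP5 from -0.95 to 0.17 and ECM22 from -0.025 to 0.25. ERG3 ran from -0.075 to 0.15, ERG7 from -0.071 to 0.19, FBP1 from -0.043 to 0.10, OLE1 from -0.074 to 0.056 and RPL3 from -0.10 to 0.029. The cause of these sign changes was not tested. The 3 arrays a time limit the precision, and signals near the bottom of the range carry little information on size.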
